A study of Mus musculus with 18 samples.

Results

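Tet1, Tet2, Tet3 and Tdg were examined here, the mouse genes of the enzymes that oxidise methylated cytosine and of the glycosylase that cuts the oxidised base out of DNA. The members were found as the rows of the gene lists whose symbol is one of these names, which gave 4 of the 31053 mouse genes counted, and their unique molecular identifiers (UMIs, 1 per captured RNA molecule) were summed over cell barcodes with at least 1500 mouse UMIs. The study dissociated whole mouse embryos at embryonic day 8.5 (E8.5), on the 129S4/SvJae strain background, and sequenced each one as a droplet single-cell RNA library that reads the end of the transcript next to the poly(A) tail. The 18 libraries comprised 7 labelled wildtype (WT), 3 labelled Dnmt1 null, 4 labelled Dnmt3a null and 4 labelled Dnmt3b null, written below as Dnmt1 KO, Dnmt3a KO and Dnmt3b KO. Dnmt1, Dnmt3a and Dnmt3b encode the DNA methyltransferases. The null embryos and matching wildtypes came from natural matings of mice heterozygous for the mutated gene, and the null embryos were genotyped from the ectoplacental cone. The paper names no Cre driver, transgene or cell line for these groups.

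DNA methylation is copied to new strands by DNMT1 and laid down anew by DNMT3A and DNMT3B. The TET proteins are dioxygenases that use iron and 2-oxoglutarate to oxidise the methyl group stepwise to hydroxymethyl, formyl and carboxyl forms. TDG, thymine DNA glycosylase, excises the formyl and carboxyl forms and base excision repair puts in an unmodified cytosine. TET1 is known from pluripotent cells and primordial germ cells, TET2 from blood cells, TET3 from the zygote and neural cells, and loss of TDG is lethal to the mouse embryo.

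All 4 members are protein-coding genes. On the GRCm38 (mm10) build with GENCODE vM21 genes, Tet1 (ENSMUSG00000047146) lies on the minus strand at chr10:62804570-62908996, Tet2 (ENSMUSG00000040943) on the minus strand at chr3:133463679-133545139, Tet3 (ENSMUSG00000034832) on the minus strand at chr6:83362373-83459084, and Tdg (ENSMUSG00000034674) on the plus strand at chr10:82629828-82650799. The annotation gives 10 transcripts for Tet1, 10 for Tet2, 5 for Tet3 and 11 for Tdg, and the counts do not tell transcripts of a gene apart. Glt8d2 overlaps the last part of Tdg on the other strand and held 255 UMIs in all WT cells, and Gm42567 overlaps the first part of Tet2 on the other strand and held 5.

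DNMT enzymes and TET enzymes act chiefly on cytosines that stand before a guanine, so the promoter windows of the members are shown with every such CG pair in capitals. Each window came from RefSeq (GRCm38.p6) and ran from 250 bases before the annotated start to 50 bases after it. The count of CG in 300 bases was 17 for Tet1, with 31.4% of 32851 mouse promoters holding as many or more, and 22 for Tet3, with 23.1%. It was 26 for Tdg, with 16.9%, and 57 for Tet2, with 0.152%, while the median over all promoters was 7. The longest stretch of each window that lies outside the annotated exons of its gene is printed in the direction of transcription. The RefSeq starts used for Tet1, Tet2 and Tet3 lie inside the GENCODE gene, so these stretches precede 1 of several starts. They are chr10:62887325-62887412 for Tet1, chr3:133544391-133544640 for Tet2, chr6:83441679-83441928 for Tet3 (all minus strand) and chr10:82629588-82629827 for Tdg (plus strand).
Tet1: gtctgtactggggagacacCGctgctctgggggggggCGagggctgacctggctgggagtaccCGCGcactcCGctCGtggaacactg
Tet2: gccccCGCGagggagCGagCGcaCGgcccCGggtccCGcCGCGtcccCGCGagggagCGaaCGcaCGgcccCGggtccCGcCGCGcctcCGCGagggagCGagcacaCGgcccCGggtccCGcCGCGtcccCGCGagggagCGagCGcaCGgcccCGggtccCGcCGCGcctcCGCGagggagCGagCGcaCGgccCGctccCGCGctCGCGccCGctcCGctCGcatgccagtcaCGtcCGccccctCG
Tet3: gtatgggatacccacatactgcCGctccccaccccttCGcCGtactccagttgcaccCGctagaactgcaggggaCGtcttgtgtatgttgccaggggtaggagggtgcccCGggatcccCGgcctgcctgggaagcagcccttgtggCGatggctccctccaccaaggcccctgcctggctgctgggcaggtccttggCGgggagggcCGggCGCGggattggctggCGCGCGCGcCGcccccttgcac
Tdg: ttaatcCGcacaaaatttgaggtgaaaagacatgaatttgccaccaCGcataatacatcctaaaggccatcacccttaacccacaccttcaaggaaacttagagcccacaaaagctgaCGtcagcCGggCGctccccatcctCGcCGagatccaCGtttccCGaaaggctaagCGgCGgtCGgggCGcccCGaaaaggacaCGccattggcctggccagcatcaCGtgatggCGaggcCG
The Tet2 stretch of 250 bases held 51 CG pairs, against 17 in 250 bases for Tet3, 18 in 240 bases for Tdg and 6 in 88 bases for Tet1. CG pairs were searched as the letters CG, which read the same on both strands, and the match describes the sequence only. Methylation was not measured in the libraries used here.

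Of 162336 barcodes, 107980 were kept as cells (33834 in Dnmt3b KO, 33499 in Dnmt3a KO, 6590 in Dnmt1 KO and 34057 in WT), with 36702043 to 233726033 UMIs per library. The libraries labelled Dnmt3b KO 1 and 2 shared 12249 cell barcodes, 86.5% of the first and 79.3% of the second, whereas no other pair of the 153 shared more than 133. They were therefore counted as 1 embryo, which left 17 embryos and n = 3 in Dnmt3b KO. The cell counts above include 7365 kept barcodes present in both libraries, each counted in both. Of these barcodes, 96.6% had the same cell class (described below) in both libraries, beside 12.3% by chance. The Dnmt1 transcript was at 14.7, 15.8 and 15.4 counts scaled to a library total of 1e+06 UMIs (CPM) in the Dnmt1 KO embryos and at 83.9 to 115 CPM in WT. The Dnmt3a transcript was at 7.57 to 11.8 CPM in Dnmt3a KO and at 23.4 to 34.96 CPM in WT. The Dnmt3b transcript was not lower in Dnmt3b KO (log2 fold change 0.0021, SE 0.18, adjusted p = 0.998, edgeR quasi-likelihood test), so it does not check that label. The libraries labelled Dnmt3b KO 11 and 12 had Dnmt3a at 15.0 and 7.51 CPM, below every WT embryo, while Dnmt3b KO 1 and 2 had 32.6 and 32.3 CPM. Number 12 was thus below every Dnmt3a KO embryo and 11 between the Dnmt3a KO and WT ranges, so the genotype of these 2 libraries is in doubt. For the members in Dnmt3b KO, whole-embryo fold changes and the signs and medians within classes are given with and without them. The class-standardised differences, class orders and pathway values of Dnmt3b KO include them. By Y-linked transcripts 1 of 7 WT embryos was male, as were all Dnmt1 KO and Dnmt3a KO embryos, so for those 2 groups sex and genotype can hardly be told apart. Of the Dnmt3b KO libraries 1, 2 and 11 were male and 12 was female. The authors counted WT 1, Dnmt3a KO 1 and 13 and Dnmt3b KO 11 on a joint human and mouse reference and the others on mouse alone.

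The first question was whether embryos without a DNA methyltransferase carried different amounts of the transcripts for the opposing enzymes. Summed over whole embryos, none of the 4 members passed the 1% false discovery rate (FDR) in any KO group. By the same edgeR quasi-likelihood test the background was 23.5% of 18770 genes for Dnmt1 KO, 0.218% for Dnmt3a KO and 1.92% for Dnmt3b KO. With DESeq2 the count was also 0 in each group. At an unadjusted p below 0.05 edgeR and DESeq2 each gave 0 members for Dnmt1 KO, 0 for Dnmt3a KO and 2 for Dnmt3b KO (Tet1 and Tet3 by edgeR), where 46.0%, 9.67% and 17.4% of all genes lay below that level by edgeR. Levels below are CPM of all mouse UMIs and are compared within a gene only, and in a whole embryo fewer cells of a type and less RNA per cell cannot be told apart. Nothing in the labels says that embryos of a group came from separate litters, so the p-values measure the spread between these embryos.

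Tet1, the oxidase of pluripotent cells, stood at a lowest, median and highest WT level of 16.3, 28.0 and 36.3 CPM. The Dnmt1 KO embryos had 28.6, 25.4 and 34.7 CPM, the Dnmt3a KO embryos 20.6, 24.4, 17.7 and 27.4 CPM, and the Dnmt3b KO libraries 1, 2, 11 and 12 had 29.9, 24.7, 19.2 and 14.9 CPM. All 3 KO groups overlapped WT, and only Dnmt3b KO 12 lay below the lowest WT embryo. The log2 fold change against WT was 0.20 in Dnmt1 KO (SE 0.19, 95% interval -0.20 to 0.60, adjusted p = 0.425). It was -0.28 in Dnmt3a KO (SE 0.17, interval -0.65 to 0.085, adjusted p = 0.643), and turned positive with the label number as a block in the fit. It was -0.44 in Dnmt3b KO (SE 0.19, interval -0.84 to -0.028, adjusted p = 0.259). The Dnmt1 KO value ran from 0.057 (without Dnmt1 KO 3) to 0.29 (without Dnmt1 KO 2) as embryos were left out.

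Tet2, which lacks the DNA-binding CXXC domain found in TET1 and TET3, stood at a lowest, median and highest WT level of 3.79, 5.32 and 6.39 CPM. The Dnmt1 KO embryos had 4.43, 3.75 and 4.89 CPM, the Dnmt3a KO embryos 4.53, 5.03, 4.61 and 6.82 CPM, and the Dnmt3b KO libraries 6.30, 6.05, 3.68 and 3.42 CPM. The groups overlapped, with Dnmt3a KO 14 above and Dnmt1 KO 2, Dnmt3b KO 11 and Dnmt3b KO 12 below the WT range. The log2 fold changes were -0.16 in Dnmt1 KO (interval -0.55 to 0.23, adjusted p = 0.533), 0.02 in Dnmt3a KO (interval -0.33 to 0.37, adjusted p = 0.990) and -0.24 in Dnmt3b KO (interval -0.63 to 0.15, adjusted p = 0.537). With sex in the fit they became -0.54, -0.36 and -0.50 (adjusted p = 0.103, 0.628 and 0.176). The Dnmt1 KO value ran from -0.26 (without Dnmt1 KO 3) to -0.073 (without Dnmt1 KO 2) as embryos were left out.

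Tet3, the oxidase stored in the oocyte, stood at a lowest, median and highest WT level of 18.8, 25.5 and 32.9 CPM. The Dnmt1 KO embryos had 20.8, 17.5 and 21.8 CPM, the Dnmt3a KO embryos 21.8, 23.6, 19.99 and 28.0 CPM, and the Dnmt3b KO libraries 27.1, 27.2, 18.6 and 17.3 CPM. The 3 Dnmt1 KO embryos lay in the lower part of the WT range or under it. The log2 fold changes were -0.29 in Dnmt1 KO (interval -0.59 to 0.0012, adjusted p = 0.110), -0.16 in Dnmt3a KO (interval -0.42 to 0.10, adjusted p = 0.735) and -0.33 in Dnmt3b KO (interval -0.62 to -0.034, adjusted p = 0.236).

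Tdg, the glycosylase that acts after the TET enzymes, varied least. Its lowest, median and highest WT levels were 80.2, 106 and 120 CPM. The Dnmt1 KO embryos had 97.4, 91.3 and 107 CPM, the Dnmt3a KO embryos 92.0, 98.1, 83.3 and 108 CPM, and the Dnmt3b KO libraries 119, 102, 83.1 and 98.0 CPM, all inside the WT range. The log2 fold changes were -0.0047 in Dnmt1 KO (interval -0.19 to 0.18, adjusted p = 0.972), -0.13 in Dnmt3a KO (interval -0.31 to 0.037, adjusted p = 0.635) and -0.13 in Dnmt3b KO (interval -0.32 to 0.059, adjusted p = 0.482). All of them turned positive with the label number as a block in the fit. For Tdg the interval in Dnmt1 KO thus ends at -0.19 and 0.18 on the log2 scale, whereas for Tet2 the interval in Dnmt3b KO reaches down to -0.63.

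The Dnmt3b KO values rested on libraries 11 and 12. Without both, leaving 1 embryo, the log2 fold changes were -0.066 for Tet1, 0.20 for Tet2, -0.00054 for Tet3 and 0.012 for Tdg. With the label number as a block they were 0.32, 0.24, 0.15 and 0.16. No other library carries the number 11 or 12, so this fit too takes the Dnmt3b KO value from libraries 1 and 2 only.

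**Figure D1:**
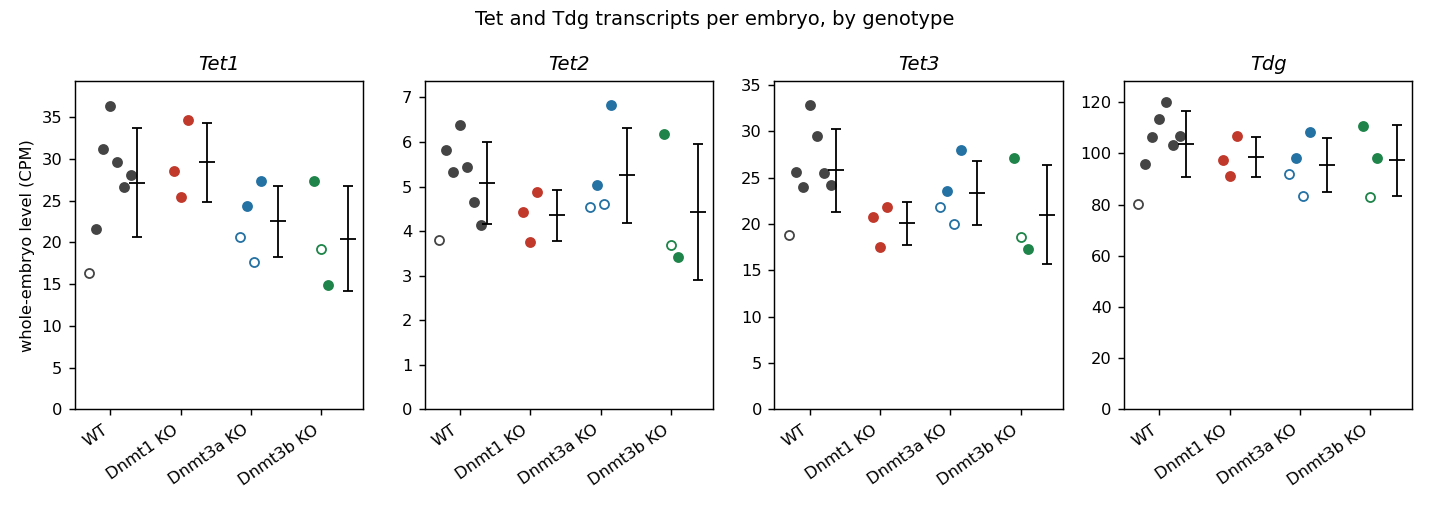
Whole-embryo level of Tet1, Tet2, Tet3 and Tdg in CPM (vertical axes, 1 panel per gene) by genotype. Points are embryos, open circles are libraries counted on the joint human and mouse reference, and the mark beside each group is the mean ± SD; WT 1, at 16.3 CPM for Tet1, is the lowest WT embryo in every panel.

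Libraries counted on the joint reference were low in WT and Dnmt3a KO, and not throughout in Dnmt3b KO. WT 1 was the lowest of the 7 WT embryos for all 4 members, and Dnmt3a KO 1 and 13 were the lowest of their group for all 4. For Tdg these libraries had 80.2, 92.0 and 83.3 CPM. Dnmt3b KO 11, also on the joint reference, was above Dnmt3b KO 12 for Tet1, Tet2 and Tet3 and below it for Tdg. The human rows of these libraries held 0 or 1 UMI for each of TET1, TET2, TET3 and TDG. No member passed the 1% FDR when the reference was added to the fit, and its part in the levels was not tested further.

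The values in Dnmt3b KO rested on the libraries 11 and 12. Without both, with 1 Dnmt3b KO embryo left and its spread taken from the other groups, the log2 fold changes were -0.07 for Tet1, 0.20 for Tet2, -0.00 for Tet3 and 0.012 for Tdg. Without libraries 1 and 2 they were -0.67 for Tet1 (adjusted p = 0.072), -0.53 for Tet2 (adjusted p = 0.105), -0.53 for Tet3 (adjusted p = 0.040) and -0.21 for Tdg (adjusted p = 0.227). Dnmt3b KO 11 and 12 are also the libraries with the low Dnmt3a transcript, and the part of these differences in the result was not tested.

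Next, the level of each member was followed through the cell types of the WT embryo. Cells were clustered without the members and their pathway genes, and 32 of 42 clusters were named "X-like" by marker genes, giving 17 classes, of which neuroepithelium joined forebrain, midbrain, hindbrain and spinal cord. The suffix is left out below. Cells of the other 10 clusters stayed unnamed and made up 18.9% ± 3.70 of cells in WT (mean ± SD, n = 7 embryos). They made up 23.0% ± 5.65 in Dnmt3b KO (4 libraries), 19.98% ± 3.75 in Dnmt3a KO (n = 4) and 30.9% ± 17.7 in Dnmt1 KO (n = 3). An order was drawn over the 14 classes that held at least 25 cells in at least 5 WT embryos.

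Tet1 was highest in surface ectoderm at 42.0 ± 7.56 CPM (SD, n = 7), followed by gut endoderm at 37.2 ± 9.06. Neuromesodermal progenitors (NMP), which give rise to spinal cord and trunk mesoderm, came next at 35.1 ± 6.998. Head mesenchyme, presomitic mesoderm, neuroepithelium, neural crest and somitic mesoderm lay between 32.2 and 35.001 CPM. Lower levels were found in cardiomyocytes (27.1 ± 6.32), extraembryonic (ExE) endoderm (25.2 ± 2.38), ExE mesoderm (21.2 ± 5.62) and allantois (19.9 ± 4.97). Endothelium, at 13.4 ± 3.59 CPM, and erythroid cells, at 4.07 ± 2.36 CPM, came last. Surface ectoderm was among the 3 highest classes in 7 of 7 embryos and the highest in 5, and erythroid cells were the lowest class in 7 of 7. In surface ectoderm the lowest, median and highest embryo had 28.6, 41.8 and 52.2 CPM, and in erythroid cells 0.826, 3.84 and 7.996 CPM from 11 to 134 UMIs. The 2 classes did not overlap, and the ratio of their means was 10.3. Globin transcripts made up 9.42% ± 3.76 of the erythroid UMIs, and leaving them out of the total raised the erythroid Tet1 level to 4.43 CPM, still the lowest class. The larger cluster of the surface ectoderm class had Six3 and Otx2, from the forebrain and midbrain marker list, among its leading genes beside Dlx5 and Tfap2a. What it adds to the surface ectoderm level was not tested.

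Tet2 had another order. It was highest in endothelium at 11.7 ± 2.85 CPM (SD, n = 7), then in cardiomyocytes at 10.6 ± 1.91, somitic mesoderm at 8.81 ± 2.77 and head mesenchyme at 8.59 ± 1.53 (n = 6). ExE mesoderm (6.32 ± 1.68), gut endoderm (6.03 ± 2.02), surface ectoderm (5.30 ± 1.56), allantois (4.63 ± 1.73) and erythroid cells (4.41 ± 1.75) followed. Neural crest, neuroepithelium and presomitic mesoderm lay between 3.88 and 4.13 CPM. NMP, at 2.83 ± 1.06 CPM, and ExE endoderm, at 1.95 ± 0.341 CPM, were lowest. ExE endoderm was among the 2 lowest classes in 7 of 7 embryos and cardiomyocytes were among the 3 highest in 7 of 7. The lowest, median and highest embryo had 7.94, 10.9 and 15.7 CPM in endothelium and 1.40, 1.95 and 2.45 CPM in ExE endoderm, which did not overlap (ratio of means 6.004). The endothelium class holds a cluster of shallow cells led by granzyme genes (Gzmg, Gzmf, Gzmd) beside one led by Kdr, and what it adds to the endothelial level was not tested.

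Tet3 was highest in gut endoderm at 38.1 ± 7.66 CPM (SD, n = 7), endothelium at 36.4 ± 7.57 and allantois, the base of the umbilical cord, at 35.2 ± 7.26. ExE mesoderm, somitic mesoderm, cardiomyocytes and neuroepithelium lay between 31.2 and 32.2 CPM and head mesenchyme at 28.1 ± 6.72. Surface ectoderm, NMP and presomitic mesoderm lay between 24.8 and 25.9 CPM, and neural crest at 20.8 ± 3.65. ExE endoderm (13.9 ± 1.24) and erythroid cells (12.1 ± 2.36) were the 2 lowest classes in 7 of 7 embryos. The lowest, median and highest embryo had 31.4, 33.9 and 49.4 CPM in gut endoderm and 8.37, 12.3 and 16.2 CPM in erythroid cells, again without overlap (ratio of means 3.14). In notochord, measured in 3 WT embryos only and so left out of the order, Tet3 was at 46.7 ± 10.0 CPM.

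Tdg had the flattest pattern. It was at 128 ± 12.8 CPM in NMP, 127 ± 13.6 in neuroepithelium and 126 ± 12.04 in head mesenchyme. Presomitic mesoderm, neural crest, surface ectoderm and somitic mesoderm lay between 117 and 121 CPM, and gut endoderm, cardiomyocytes, allantois and ExE mesoderm between 101 and 114 CPM. Endothelium (93.4 ± 10.2) stood above erythroid cells (67.1 ± 9.89) and ExE endoderm (65.6 ± 6.83), which were the 2 lowest classes in 7 of 7 embryos. The ratio of the highest to the lowest class mean was 1.95. The lowest, median and highest embryo had 117, 121 and 153 CPM in NMP and 53.8, 65.0 and 75.9 CPM in ExE endoderm, without overlap.

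**Figure D2:**
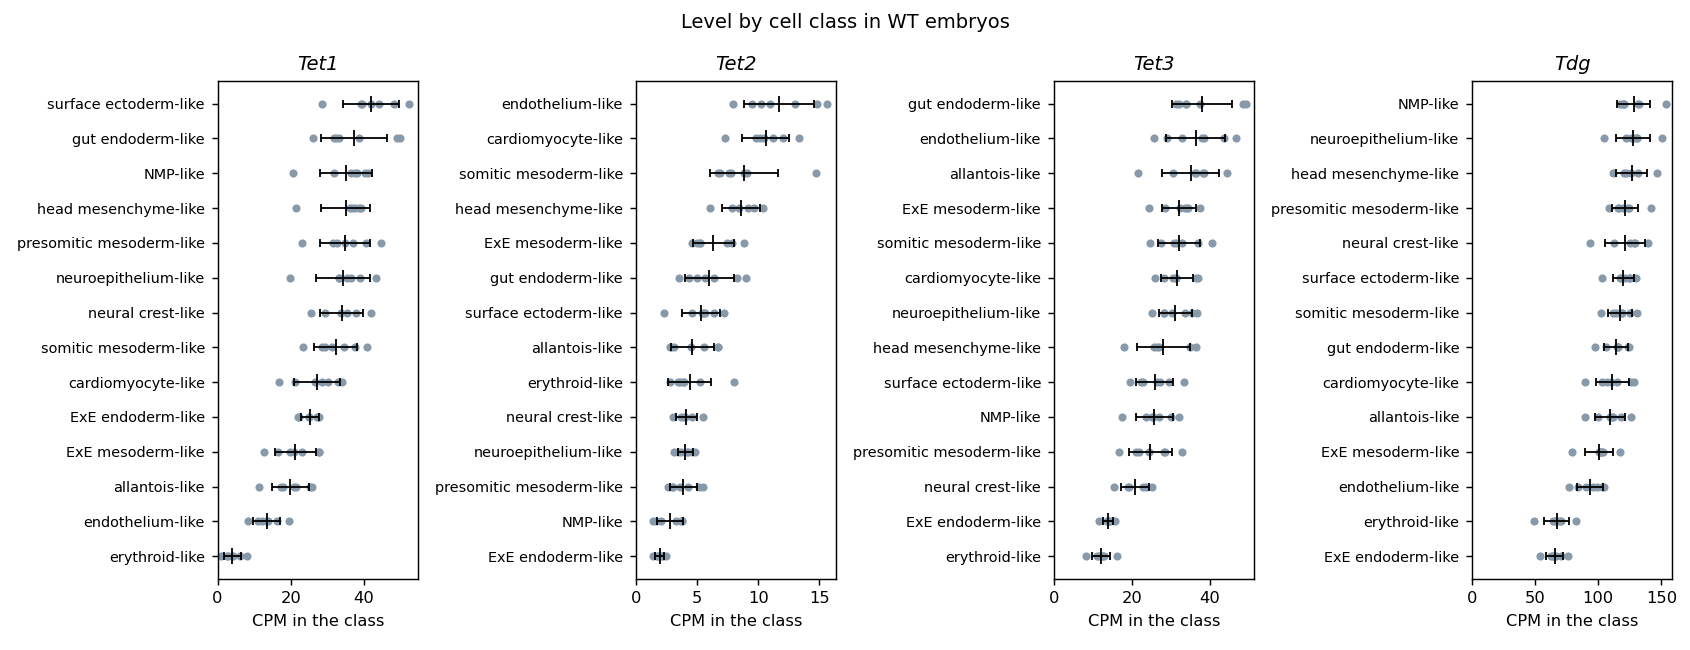
Level of each member in CPM (horizontal axes) in the 14 cell classes of the WT embryos (vertical axis), 1 panel per gene. Points are WT embryos with at least 25 cells of the class, and the mark is the mean ± SD; Tet1 falls to 4.07 CPM in erythroid cells, Tet2 is highest in endothelium at 11.7 CPM, and Tdg spans the smallest ratio.

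Neighbouring classes in these orders were compared over embryos. Of 52 steps between neighbouring classes, 0 passed an adjusted p of 0.05 in the exact two-sided sign-flip permutation test over embryos, 10 had an unadjusted p below 0.05, and the smallest adjusted p was 0.203. The smallest p that 7 embryos allow is 0.0156, and 4 steps reached it with all 7 embryos in the same direction. Over 52 steps even these had an adjusted p of 0.203, so the count of 0 says little about whether neighbours differ. The 4 steps were somitic mesoderm over cardiomyocytes (0.26 on the log2 scale), allantois over endothelium (0.54) and endothelium over erythroid cells (1.61) for Tet1, and endothelium over erythroid cells (0.48) for Tdg.

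Over the 14 WT class means, Tet1 and Tdg followed each other most closely (Pearson r of log2 levels 0.75, Spearman rho 0.76), while Tet2 and Tet3 had 0.60 and 0.67. Tet1 and Tet2 did not run together (-0.07 and -0.20). For Tet3 and Tdg the Pearson value of 0.68 stood beside a Spearman value of -0.10, and for Tet1 and Tet3 0.46 stood beside -0.03. These describe 14 points that share the embryos, their depth and their totals, and carry no test. Among 10119 genes with at least 10 CPM in a class, the pattern most like Tet1 over the 14 classes was that of Taz (Spearman rho 0.934), then Efna4, Pigx, Igsf9 and Epb41l4a (0.925 each). Those most like Tet2 were 1700020I14Rik (0.895), Rcsd1 (0.877), Hivep2 (0.859), Map4k5 (0.855) and Pcgf3 (0.851). Those most like Tet3 were Kifc1 (0.921), Ubr4 (0.912), Cep55 and Nfkb1 (0.903 each) and Tgfb2 (0.899). Those most like Tdg were Rbm33 (0.974), Cacna1a and Msh3 (0.965 each) and Eri2 and Fam133b (0.960 each).

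The KO groups were then compared with WT within each class, to separate the level in a cell type from the makeup of the embryo. Of 127 values of a member in a class, 0 passed the 1% FDR by the edgeR quasi-likelihood test: 0 of 16 for Dnmt1 KO, 0 of 59 for Dnmt3a KO and 0 of 52 for Dnmt3b KO. The background over all pairs of gene and class was 16.3%, 0.156% and 0.803%. At an unadjusted p below 0.05 the counts were 6, 5 and 15, where 39.5%, 10.2% and 15.0% of all pairs lay below it. DESeq2 passed 3, 0 and 0. The share of all pairs that DESeq2 passed is not given, so these counts have no background beside them.

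Only in ExE endoderm, ExE mesoderm, endothelium and gut endoderm did both WT and Dnmt1 KO hold enough cells in 3 or more embryos. Dnmt1 KO cells made up 99.6% of the clustered cells in an ExE endoderm cluster and 0.217%, 18.4% and 8.09% in the others of that class. The part of this mix in the ExE endoderm values was not tested. In that class the Dnmt1 KO and WT means were 27.4 and 25.2 CPM for Tet1 and 2.12 and 1.95 CPM for Tet2. They were 13.6 and 13.9 CPM for Tet3 and 75.7 and 65.6 CPM for Tdg. Tdg ranged from 73.2 to 77.2 CPM in Dnmt1 KO and from 53.8 to 75.9 CPM in WT. Its log2 fold change was above 0 in all 4 classes, from 0.019 to 0.40. The 3 values that DESeq2 passed were among the 5 values closest to the threshold by edgeR. In ExE mesoderm, the lining of the yolk sac and amnion, Tet1 was at 29.5, 30.5 and 33.4 CPM, above every WT embryo (12.6 to 27.8 CPM), and its log2 fold change was 0.62 ± 0.19 (SE; edgeR adjusted p = 0.016, DESeq2 adjusted p = 0.0082). It passed the 1% FDR in 6 of 27 alternative fits (adjusted p 0.0037 to 0.199), among them those without WT 3 (0.0064), without WT 4 (0.0075) and without Dnmt3a KO 2 (0.0095). WT 3 and WT 4 had the highest WT levels of Tet1 there, at 27.8 CPM each, so leaving out either widens the gap to Dnmt1 KO. Of the clustered cells in the Tdo2-led cluster of this class, 98.9% were Dnmt1 KO cells, whereas the other 2 clusters of the class, led by Lum and by Postn, held 0.213% and 0%, so different clusters carried the class in the 2 groups. In the same class Tet3 was at 42.6, 37.6 and 33.9 CPM against 24.3 to 37.5 CPM in WT, and its log2 fold change was 0.35 ± 0.12 (SE; adjusted p = 0.024), and Tdg and Tet2 were inside or across the WT range at 0.15 (adjusted p = 0.24) and -0.16 (adjusted p = 0.60).

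In endothelium Tdg was at 129, 112 and 121 CPM in Dnmt1 KO, from 165, 87 and 203 UMIs, above every WT embryo (77.1 to 105 CPM). These came from 36, 31 and 124 cells with median UMIs per cell of 32720, 27160 and 3593, beside 3649 to 33300 in WT, and the part of depth was not tested. Of the clustered cells, 6.09% in the Kdr-led cluster of this class and 14.7% in the shallow granzyme-led one were Dnmt1 KO cells, and the part of this mix in the values of Tdg, Tet3 and Tet1 was not tested either. For Tdg in endothelium the log2 fold change was 0.40 (SE 0.12, edgeR adjusted p = 0.016, DESeq2 adjusted p = 0.0041), and it passed in 2 of 26 alternative fits. Tet3 was at 25.1, 18.0 and 23.8 CPM there against 25.8 to 46.7 CPM in WT, below every WT embryo, and its log2 fold change was -0.63 ± 0.23 (SE; adjusted p = 0.044) from 32, 14 and 40 UMIs. Tet1 in the same cells came from 6, 5 and 24 UMIs, and its log2 fold change of -0.54 had an interval of -1.29 to 0.21. In gut endoderm Tet3 was at 22.6, 28.8 and 15.2 CPM against 31.4 to 49.4 CPM in WT, below every WT embryo, from 47, 48 and 28 UMIs in 30, 44 and 38 cells. Its log2 fold change was -0.67 (SE 0.20, edgeR adjusted p = 0.018, DESeq2 adjusted p = 0.0096), and it passed in 2 of 26 alternative fits. In all, 2 of the 16 Dnmt1 KO values lay above and 2 below every WT embryo, and over all gene and class pairs tested 28% had every Dnmt1 KO embryo outside the WT range on one side. Tet3 thus had log2 fold changes above 0 in ExE mesoderm and below 0 in endothelium and gut endoderm, none of which passed, and the difference between classes was not tested.

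The Dnmt1 KO embryos also held cells with few or no WT counterparts. Cells named epiblast, after the pluripotent layer that forms the embryo, came from a cluster made up to 98.5% of Dnmt1 KO cells. They reached 25 cells in no WT embryo. The name rests on Pou5f1, Utf1, Fgf5 and Slc7a3, which the paper reports as raised across most cell types of Dnmt1 null embryos. Whether these are epiblast or later cells with raised markers was not tested. In this class Tet1 was at 48.1, 51.5 and 52.6 CPM, above its mean of 42.0 CPM in WT surface ectoderm. That was the highest WT class, in which single WT embryos reached 52.2 CPM. Tet2 was at 4.49, 4.08 and 5.80 CPM, Tet3 at 20.4, 21.1 and 21.5 CPM and Tdg at 118, 115 and 118 CPM. WT embryos held 0 to 6 epiblast cells each, so these are levels and not a comparison of genotypes. In ExE ectoderm, the trophoblast, Tet1 was at 25.4, 17.8 and 19.3 CPM in Dnmt1 KO and Tet3 at 8.06, 13.2 and 11.5 CPM. The single WT embryo with enough cells, WT 2, had 23.9 CPM of Tet1 and 16.6 CPM of Tet3. These WT levels came from 72 and 50 UMIs in 127 cells. The median UMIs per cell were 3568 in WT 2 and 78630, 43120 and 51260 in Dnmt1 KO, and the part of depth was not tested.

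In Dnmt3a KO 50 of 59 log2 fold changes were below 0 and 9 above, with a median of -0.13, and no value had all embryos outside the WT range on one side (1.56% of all pairs did). The lowest was Tet1 in erythroid cells at -0.95 (interval -1.92 to 0.02, adjusted p = 0.53), with means of 1.94 CPM in Dnmt3a KO and 4.07 CPM in WT. The highest was Tet1 in notochord at 0.63 (adjusted p = 0.96), with 34.3 ± 6.86 CPM (n = 4) against 21.1 ± 5.89 CPM (n = 3). Tet2 was above 0 in 6 of 14 classes, among them NMP at 0.58 (interval -0.05 to 1.21, adjusted p = 0.47). Tdg was below 0 in all 15 classes, from -0.26 to -0.00228. The classes of an embryo share its library and depth, so the 59 values are not separate observations. The share of all gene and class pairs below 0 is not given. Dnmt3a KO 1 and 13 were counted on the joint reference, as was WT 1 alone in WT. The part of the reference in these values was not tested.

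In Dnmt3b KO all 52 log2 fold changes were below 0, with a median of -0.28 and a range of -0.94 to -0.038. The share of all gene and class pairs below 0 is not given here either, so a shift of the libraries as a whole is not set apart. The classes of an embryo share its library and depth, so the 52 values are not separate observations. The direction rested on Dnmt3b KO 11 and 12. Without these 2 libraries 23 of the 52 values were below 0 and 29 above, with a median of 0.030. With the label number as a block 8 were below and 44 above. No other library carries the number 11 or 12, so the block fit also takes the Dnmt3b KO value from libraries 1 and 2 only. It is therefore not a separate check. With all libraries the medians over 13 classes each were -0.40 for Tet1, -0.26 for Tet2, -0.36 for Tet3 and -0.085 for Tdg. Without 11 and 12 they were -0.094, 0.13, -0.075 and 0.042. In the edgeR fits with all libraries the smallest adjusted p was 0.128, for Tet3 in NMP. No value there had all embryos outside the WT range on one side (4.35% of all pairs did).

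**Figure D3:**
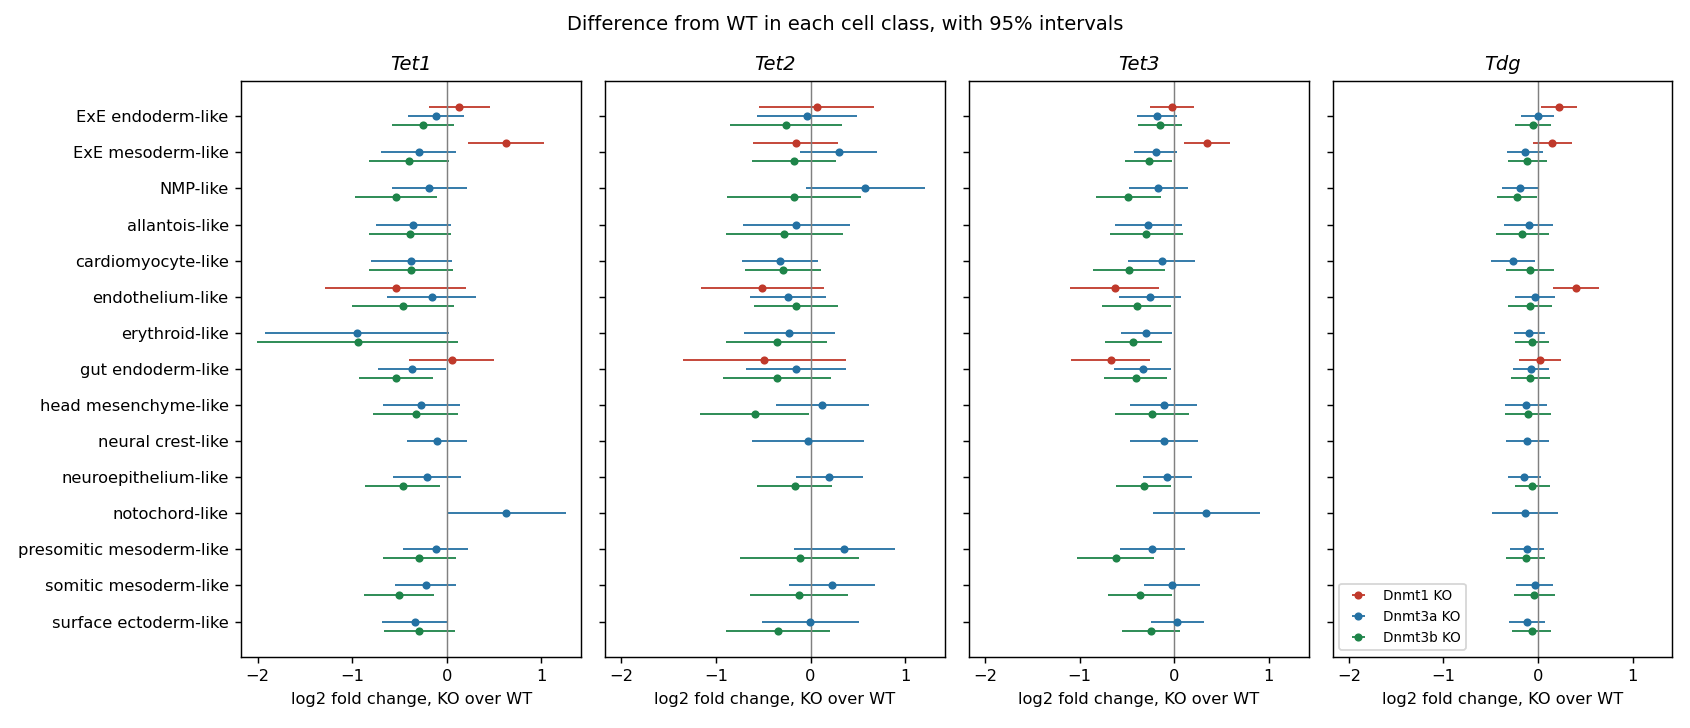
Log2 fold change of each member against WT (horizontal axes) by cell class (vertical axis), 1 panel per gene, with colours for Dnmt1 KO, Dnmt3a KO and Dnmt3b KO. Points are edgeR estimates, bars are 95% intervals, and the vertical line marks 0; none of the 127 values passed the 1% FDR, and the 52 in Dnmt3b KO all lie to the left of 0.

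The order of classes in the KO groups was set beside that in WT as a description, without a test. In Dnmt1 KO, over 4 classes, the Spearman rho with WT was 0.8 for Tet1, 1 for Tet2, 0.2 for Tet3 and 0.4 for Tdg. In Dnmt3b KO the Spearman rho of 13 class means with WT was 0.94 for Tet1, 0.99 for Tet2, 0.96 for Tet3 and 0.90 for Tdg. In Dnmt3a KO, over 15 classes with notochord among them, it was 0.66 for Tet1, 0.90 for Tet2, 0.94 for Tet3 and 0.87 for Tdg. The highest Tet1 class was surface ectoderm in Dnmt3b KO. In Dnmt3a KO notochord, at 34.3 ± 6.86 CPM, and surface ectoderm, at 34.2 ± 5.68 CPM (SD, n = 4 each), could not be ranked. Erythroid cells were the lowest Tet1 class in both groups.

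With the shares of classes held at the WT mean, the exact two-sided permutation test over embryos gave no difference that passed an adjusted p of 0.05 among 12 values. The mix of clusters within a class, given above for Dnmt1 KO, was not held fixed. In Dnmt1 KO, over 4 classes, the log2 differences were 0.064 for Tet1 (exact p = 0.658), -0.35 for Tet2 (exact p = 0.10), -0.36 for Tet3 (exact p = 0.05) and 0.15 for Tdg (exact p = 0.10), with adjusted p from 0.24 to 0.718. For Tdg the 3 Dnmt1 KO embryos, at 94.1 to 97.5 CPM, lay above every WT embryo, at 71.2 to 92.8 CPM, while the other members overlapped. Such separation was common in Dnmt1 KO, at 28% of all gene and class pairs. The share of all genes for this measure is not given. In Dnmt3a KO, over 12 classes, the log2 differences were -0.21, -0.012, -0.17 and -0.098 (exact p = 0.227, 0.936, 0.221 and 0.285). In Dnmt3b KO, over 12 classes, they were -0.44, -0.28, -0.37 and -0.084 (exact p = 0.075, 0.217, 0.0583 and 0.475). These include the libraries of doubtful genotype and are not given without them. The highest Dnmt3b KO embryo, at 25.6, 5.72, 25.74 and 107 CPM, lay above the WT means of 25.3, 5.03, 25.71 and 99.7 CPM. The lowest lay below every WT embryo for each member. As embryos were left out the differences ran from -0.68 to -0.25, -0.53 to -0.13, -0.57 to -0.25 and -0.18 to 0.027. The smallest p these designs allow is 0.00833 for 3 against 7 embryos and 0.00303 for 4 against 7. A single value at 0.00833 would not pass after adjustment over 12 values. The lack of a pass thus says little about single members in Dnmt1 KO and Dnmt3b KO.

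The genes around the members in the same pathway were listed apart from them, and 62 of 65 were tested in whole embryos. In Dnmt1 KO 4 were higher and 9 lower at the 1% FDR, beside 12.4% higher and 11% lower of all genes, and the 9 became 4 without Dnmt1 KO 1 and 6 without Dnmt1 KO 2. In Dnmt3a KO 0 were higher and 1 lower (Dnmt3a itself), beside 0.208% higher and 0.0107% lower of all genes. In Dnmt3b KO 0 passed by edgeR, beside 1.88% higher and 0.0479% lower of all genes, and 0 by DESeq2. At an unadjusted p below 0.05 by edgeR 6 were higher and 7 lower, where 17.4% of all genes lay below that level in either direction. The median log2 fold change of the 62 genes was -0.085 for Dnmt1 KO, -0.0037 for Dnmt3a KO and -0.0039 for Dnmt3b KO, beside 0.013, 0.0012 and -0.016 over all genes tested.

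Among partners and regulators of the TET proteins 1 of 9 rose in Dnmt1 KO. Nanog, a pluripotency factor that binds TET1, was at 1.40, 0.718 and 2.68 CPM against 0.0579 to 1.10 CPM in WT, and its log2 fold change was 2.31 ± 0.59 (SE; adjusted p = 0.0052). Its levels overlapped WT, since Dnmt1 KO 2 lay below WT 7. Cells named epiblast made up 17.6%, 9.40% and 13.3% of the kept cells in Dnmt1 KO and at most 0.20% in WT. Their part in this level was not tested. Ogt, the sugar transferase that binds TET proteins, had -0.36 (adjusted p = 0.061).

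Of 8 other DNA glycosylases 2 fell in Dnmt1 KO. Nthl1, which removes oxidised pyrimidines, fell by 0.52 on the log2 scale (adjusted p = 0.0011), and Ung, which removes uracil, fell by 0.50 (adjusted p = 0.0022). Mbd4, which like Tdg acts on thymine paired with guanine, had -0.11 (adjusted p = 0.479). Of 12 genes of the repair steps after the glycosylase 1 fell, the flap endonuclease Fen1, by 0.45 (adjusted p = 0.0048).

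The Gadd45 family, which has been linked to DNA demethylation, split in Dnmt1 KO. Gadd45b was at 13.5, 41.7 and 15.3 CPM against 5.9995 to 7.73 CPM in WT, and its log2 fold change was 1.86 ± 0.24 (SE; adjusted p = 1.60e-05). Gadd45a was at 10.4, 6.73 and 11.3 CPM against 21.2 to 30.4 CPM in WT, and its log2 fold change was -1.34 ± 0.17 (SE; adjusted p = 1.53e-05). Neither group overlapped WT. Within the 4 classes neither gene passed the 1% FDR. Gadd45a ranged from -0.51 in ExE mesoderm to 0.11 in endothelium, and Gadd45b from -0.93 in ExE endoderm to 1.26 in endothelium.

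Of 9 readers of methylated or oxidised cytosine 2 fell in Dnmt1 KO. Mbd2, which binds methylated CG, was at 16.7, 14.4 and 18.1 CPM against 23.6 to 50.9 CPM in WT, with no overlap, and its log2 fold change was -1.35 (SE 0.20, adjusted p = 4.94e-05). It was also lower in all 4 classes, from -1.18 in ExE endoderm to -1.84 in endothelium. Mbd1, of the same family, fell by 0.50 (adjusted p = 0.00074). Of 13 genes of 2-oxoglutarate and ascorbate supply 1 fell, the mitochondrial isocitrate dehydrogenase Idh2, by 0.46 (adjusted p = 0.0043), and of 3 deaminases tested 1 fell, Apobec3, by 1.12 (adjusted p = 0.0020).

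Of the 4 methyltransferase genes, Dnmt3l, the cofactor of DNMT3A and DNMT3B in germ cells, was at 9.84, 39.6 and 10.7 CPM in Dnmt1 KO against 0.153 to 1.53 CPM in WT, and its log2 fold change was 5.69 ± 0.65 (SE; adjusted p = 4.18e-06). It also passed in ExE mesoderm at 2.11 (adjusted p = 0.0074). Dnmt3b rose by 0.95 (SE 0.17, adjusted p = 0.00045), and Dnmt1 itself fell by 2.70 (SE 0.12, adjusted p = 6.22e-11). Dnmt1 KO 2, the highest library for both Gadd45b and Dnmt3l, is the one with 952 ExE ectoderm cells, against 81 and 107 in the other two. The part of that difference, and for Dnmt3b of the epiblast share given above, in these whole-embryo levels was not tested.

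**Figure D4:**
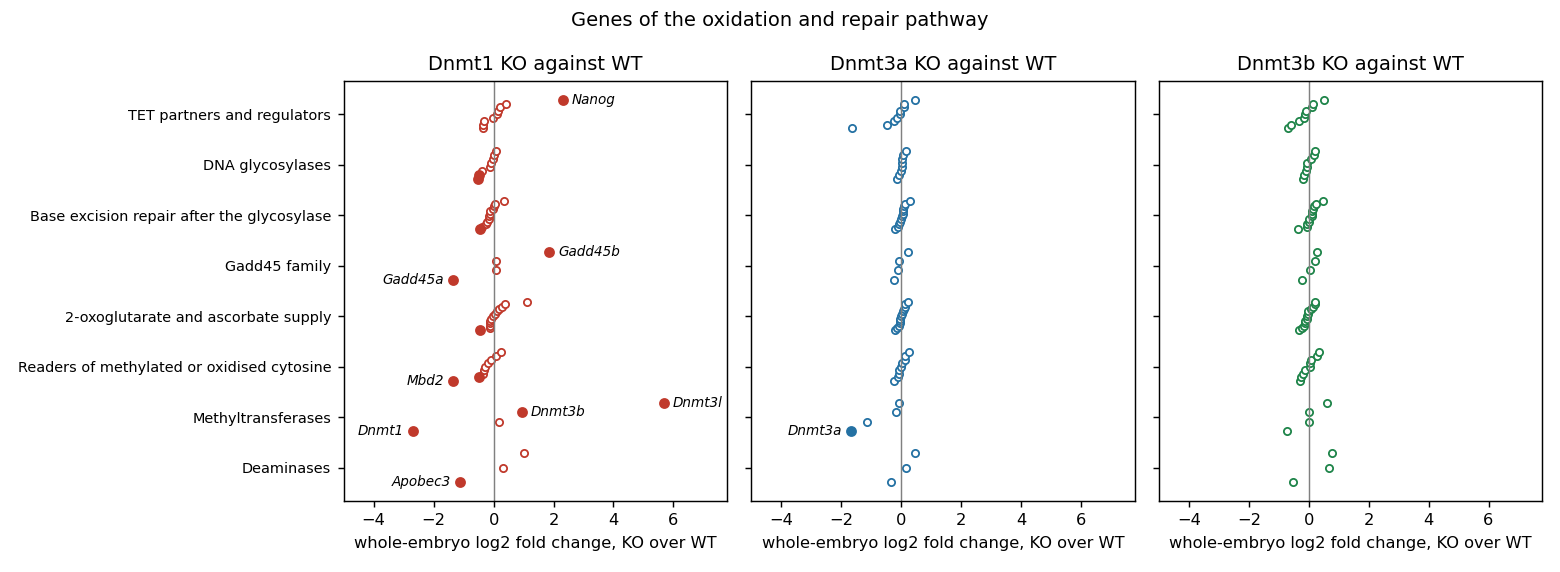
Whole-embryo log2 fold change against WT (horizontal axis) of the pathway genes by list (vertical axis), 1 panel per KO group. Filled points passed the 1% FDR and open points did not; in Dnmt1 KO, Dnmt3l at 5.69 lies farthest to the right and Dnmt1 at -2.70 farthest to the left.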

How the data were processed

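Single E8.5 mouse embryos were profiled by droplet single-cell RNA sequencing. The authors aligned and counted the reads with Cell Ranger (3.1.0, and 5.0.0 for Dnmt3b KO 12, per the file headers, whereas the study's methods name 5.0.0 throughout) on mm10, or for 4 libraries on a joint human and mouse reference, and deposited raw UMI counts per gene and barcode for 18 libraries. Everything below was computed from these counts.

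Barcodes with at least 1500 mouse UMIs, at most 30% mitochondrial and at most 35% ribosomal UMIs were kept, and 7646 barcodes closest to simulated doublets were removed. Reference cells (1500 per library) were clustered (leidenalg 0.10.2, resolution 2) without the members, pathway lists and sex genes, and other cells took the class of their neighbours. Clusters were named from marker lists. UMIs were summed per embryo and class, and classes with at least 25 cells per embryo were used. Median UMIs per cell ranged from 4129 to 60648 among libraries.

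Tests were edgeR 4.0.16 quasi-likelihood fits on all 4 groups with TMM scaling, filterByExpr and Benjamini-Hochberg adjustment over all genes of a fit, at an adjusted p of 0.01. DESeq2 1.42.0, no count filter, a replicate block, sex and reference covariates, other cell sets, thinning and leaving out embryos were alternatives. The order of WT classes used an exact sign-flip permutation test on log2(CPM + 1), and class-standardised levels an exact permutation test. The fits were tested on simulated data. The text names the members, the 3 pathway genes with the largest change each way past the threshold, the 5 genes most like each member and the targeted genes. Other pathway genes are named where 2 or fewer of a list passed, or (Ogt, Mbd4) as close to a member in function, and these were chosen after their values were seen. The members and lists were chosen with earlier results of these data known. Of 31053 gene identifiers 30934 were found in GENCODE vM21.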

Additional observations from a re-analysis of the deposited data

Results flagged for a closer look

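Of 64 sets of 4 to 10 embryos tested for a single value far from the rest (Dixon's test at the 95% level), 3 stood out, where chance gives about 1 in 20, or 3.2. Tet1 in head mesenchyme was lowest in WT 1 at 21.6 CPM, with the other 5 WT embryos at 36.2 to 39.1 CPM. WT 1 was counted on the joint human and mouse reference. Tet2 in somitic mesoderm was highest in WT 2 at 14.8 CPM, with the next at 9.08 and the lowest at 6.70 CPM. Tdg in NMP was highest in WT 5 at 153 CPM, with the next at 133 and the lowest at 117 CPM, from 327 UMIs in 72 cells. WT 5 is the library with the fewest UMIs.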

How the results depend on the processing

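No whole-embryo value of a member passed the 1% FDR under any alternative. Under the alternatives 28 such values changed sign and 296 did not. In Dnmt1 KO, Tdg (-0.0047) became 0.0049 with DESeq2, 0.059 with the replicate block, 0.0017 with Dnmt3b KO 1 and 2 as separate embryos, 0.0025 with every barcode and 0.030 with thinned counts, and ran from -0.076 to 0.036 as embryos were left out. In Dnmt3a KO, Tet2 (0.02) became -0.36 with sex in the fit, -0.034 with the block and -0.013 thinned, and ran from -0.038 to 0.084, while the block turned Tet1 to 0.13 and Tdg to 0.042. In Dnmt3b KO the block gave 0.32 for Tet1, 0.24 for Tet2, 0.15 for Tet3 and 0.16 for Tdg. Leaving out Dnmt3b KO 11 and 12 gave 0.20 for Tet2 and 0.012 for Tdg. The numbers 11, 12, 13 and 14 each occur in a single library, so the block takes the Dnmt3a KO and Dnmt3b KO values from libraries 1 and 2 only. The class-standardised Tet2 difference in Dnmt3a KO became 0.011 with equal weights and ran from -0.13 to 0.062, and that of Tdg in Dnmt3b KO from -0.18 to 0.027, as embryos were left out. Values of members in a class past the 1% FDR in Dnmt1 KO went from 0 to 3 with DESeq2, 2 with no count filter, 1 with the block, 1 with the reference covariate and 0 to 1 with an embryo left out. Pathway genes lower in Dnmt1 KO went from 9 to 4 with the block and 4 to 11 with an embryo left out. The 1 lower in Dnmt3a KO, Dnmt3a, went to 0 with the block and to 0 to 1 with an embryo left out, and in Dnmt3b KO the counts higher and lower ran from 0 to 1. The cause of these changes was not tested. Of 7 pairs of samples with the same label number, 4 had correlated deviations above 0.1 and 3 did not (from -0.41 to 0.48, the highest being WT 1 and Dnmt3a KO 1, both on the joint reference), so the numbers were not taken to pair embryos. The 5 to 134 UMIs behind several endothelial and erythroid values limit what could be seen there.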
